A study of Mus musculus with 31 samples.

Results

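The 10 genes described here are Trp53, Mdm2, Cdkn2a, Cdkn1a, Ccng1, Bax, Sesn1, Trp53inp1, Phlda3 and Cdkn2b, which make up the core of the p53 pathway and the INK4 side of the senescence barrier. They were taken by name from a list that was chosen with earlier results of these data known. All 10 of them were found among the 29267 genes of the files and were abundant enough to be tested. RNA was measured in 31 libraries of mouse cells of the strain 129/OG2. The reprogramming cells carried OKSM, the factors Oct4, Klf4, Sox2 and Myc, together with a second construct. That was either Flag, treated here as the control, or Tet1CD, which the labels do not spell out. Their medium held the solvent DMSO, vitamin C (Vc) or DKG, the last an abbreviation used as written, and they were collected at day 3 or day 8. Each of these 12 groups had 2 libraries, numbered 0824 and 0826. Untreated fibroblasts of passage 2 (MEF) had 2 libraries with the same numbers, and embryonic stem cells (ESC) had 2, called 0822 (passage 17) and 0819 (passage 19). Fibroblasts kept for 3 days with DMSO, Vc or DKG had 1 library each, and the labels of the last name 2 different compounds (DKG and 2DG), so its identity is uncertain. No dose, sorting step or clone was given in the labels, so each reprogramming library is taken as RNA of a whole culture. Whether the paired libraries were grown separately is not stated, so the p-values measure only their spread, which may be technical.

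The p53 protein, encoded by Trp53, is a transcription factor held at a low level by Mdm2, a ubiquitin ligase that marks it for degradation and whose gene p53 itself switches on. Cdkn2a encodes 2 unrelated proteins from different first exons. Its product ARF binds MDM2 and so protects p53, while INK4A blocks the kinases CDK4 and CDK6, as does the product of the neighbouring gene Cdkn2b, INK4B. When p53 is active it raises genes for cell cycle arrest and for cell death, and together the ARF, INK4 and p53 arms are known as a barrier that fibroblasts must pass to be reprogrammed. Because p53 is controlled mostly as a protein, the RNA of its target genes tells more about its activity than the RNA of Trp53.

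Of the 10 genes, 9 had an entry among the 32851 promoters of the RefSeq table (build GRCm38.p6; 250 bases before to 50 after each start), with 12 starts in all, and Trp53inp1 had none. The windows were searched for the p53 consensus, which is a pair of half-sites of 10 bases that read the same on both strands. Allowing 1 mismatch over the pair and up to 13 bases between them, 3 of the 9 genes held a full site, Cdkn1a, Ccng1 and Bax, against 1.09% of all promoters. Without any spacer it was Cdkn1a and Ccng1, against 0.0883% of all promoters. These 3 windows are printed because they hold the full sites. Capitals mark the 2 half-sites, and only bases before the start are given.
Cdkn1a: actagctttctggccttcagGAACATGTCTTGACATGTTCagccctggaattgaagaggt
Ccng1: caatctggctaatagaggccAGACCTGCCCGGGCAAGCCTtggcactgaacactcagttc
Bax: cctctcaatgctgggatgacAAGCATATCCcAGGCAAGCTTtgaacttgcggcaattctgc
The Cdkn1a window is chr17:29090908-29090967 on the plus strand, and its site begins 51 bases before the first of the gene's 2 starts, which lies 2790 bases before the second. The Ccng1 window is chr11:40755442-40755501 on the minus strand, with the site beginning 195 bases before the start. The Bax window is chr7:45467070-45467130 on the minus strand, with the site beginning 212 bases before the start and 1 base between the half-sites. Mdm2, Trp53 and the second start of Sesn1 each held a single half-site without mismatch, which 8.36% of all promoters hold. No match was found in the windows of Cdkn2a, Cdkn2b or Phlda3, which says only that these letters are not there. The window of the ARF start of Cdkn2a held 45 CpG dinucleotides, that of its INK4A start 12 and that of Cdkn2b 18, against a median of 7 over all promoters.

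Total counts ran from 3953297 to 6818060 per library. Levels below are CPM, counts scaled to the size of the library with TMM factors, and only TPM, which is also corrected for length, is used to compare genes with one another. A gene was called changed at an adjusted p under 0.05 in edgeR's quasi-likelihood test over all genes. Fibroblast markers (12 genes, none of them at 0 in any library) summed to 52650 and 56640 CPM in MEF, to between 3662 and 9383 at day 3, to between 4045 and 10590 at day 8, and to 15820 and 4509 in the ESC libraries 0822 and 0819. Stem cell markers (10 genes) summed to 2673 and 3686 CPM in ESC, to at most 18.99 at day 3 and to at most 339.0 at day 8. Macrophage and blood markers (10 genes) summed to 2546 CPM in MEF 0824 and 528 in MEF 0826, and to 1067 CPM in the day 8 library 0824 of Tet1CD with Vc. In every other reprogramming library the macrophage sum was at most 85.8 CPM. Within a day, libraries of 1 number deviated together, so a second fit of the 24 reprogramming libraries had the number as a block within each day, and it is given where it changes a call. In the annotation a gene on the opposite strand overlaps Cdkn1a, and genes on the same strand overlap Bax and Sesn1. None of these overlapping genes had an entry in the files, and reads of such pairs may not be separable.

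Compared by TPM, Cdkn1a was the most abundant of the 10 genes at day 3 with a median of 667, followed by Ccng1 (519), Bax (354), Mdm2 (234), Trp53 (227), Phlda3 (223), Cdkn2a (115), Trp53inp1 (69.7), Cdkn2b (44.2) and Sesn1 (12.9). The ranges of neighbours in this order mostly overlapped. Cdkn1a (427 to 817 TPM) and Ccng1 (375 to 837 TPM) did so almost fully, and so did Mdm2 (122 to 323), Trp53 (193 to 256) and Phlda3 (154 to 266). Bax (288 to 409) overlapped with both Ccng1 and Mdm2.

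**Figure D1:**
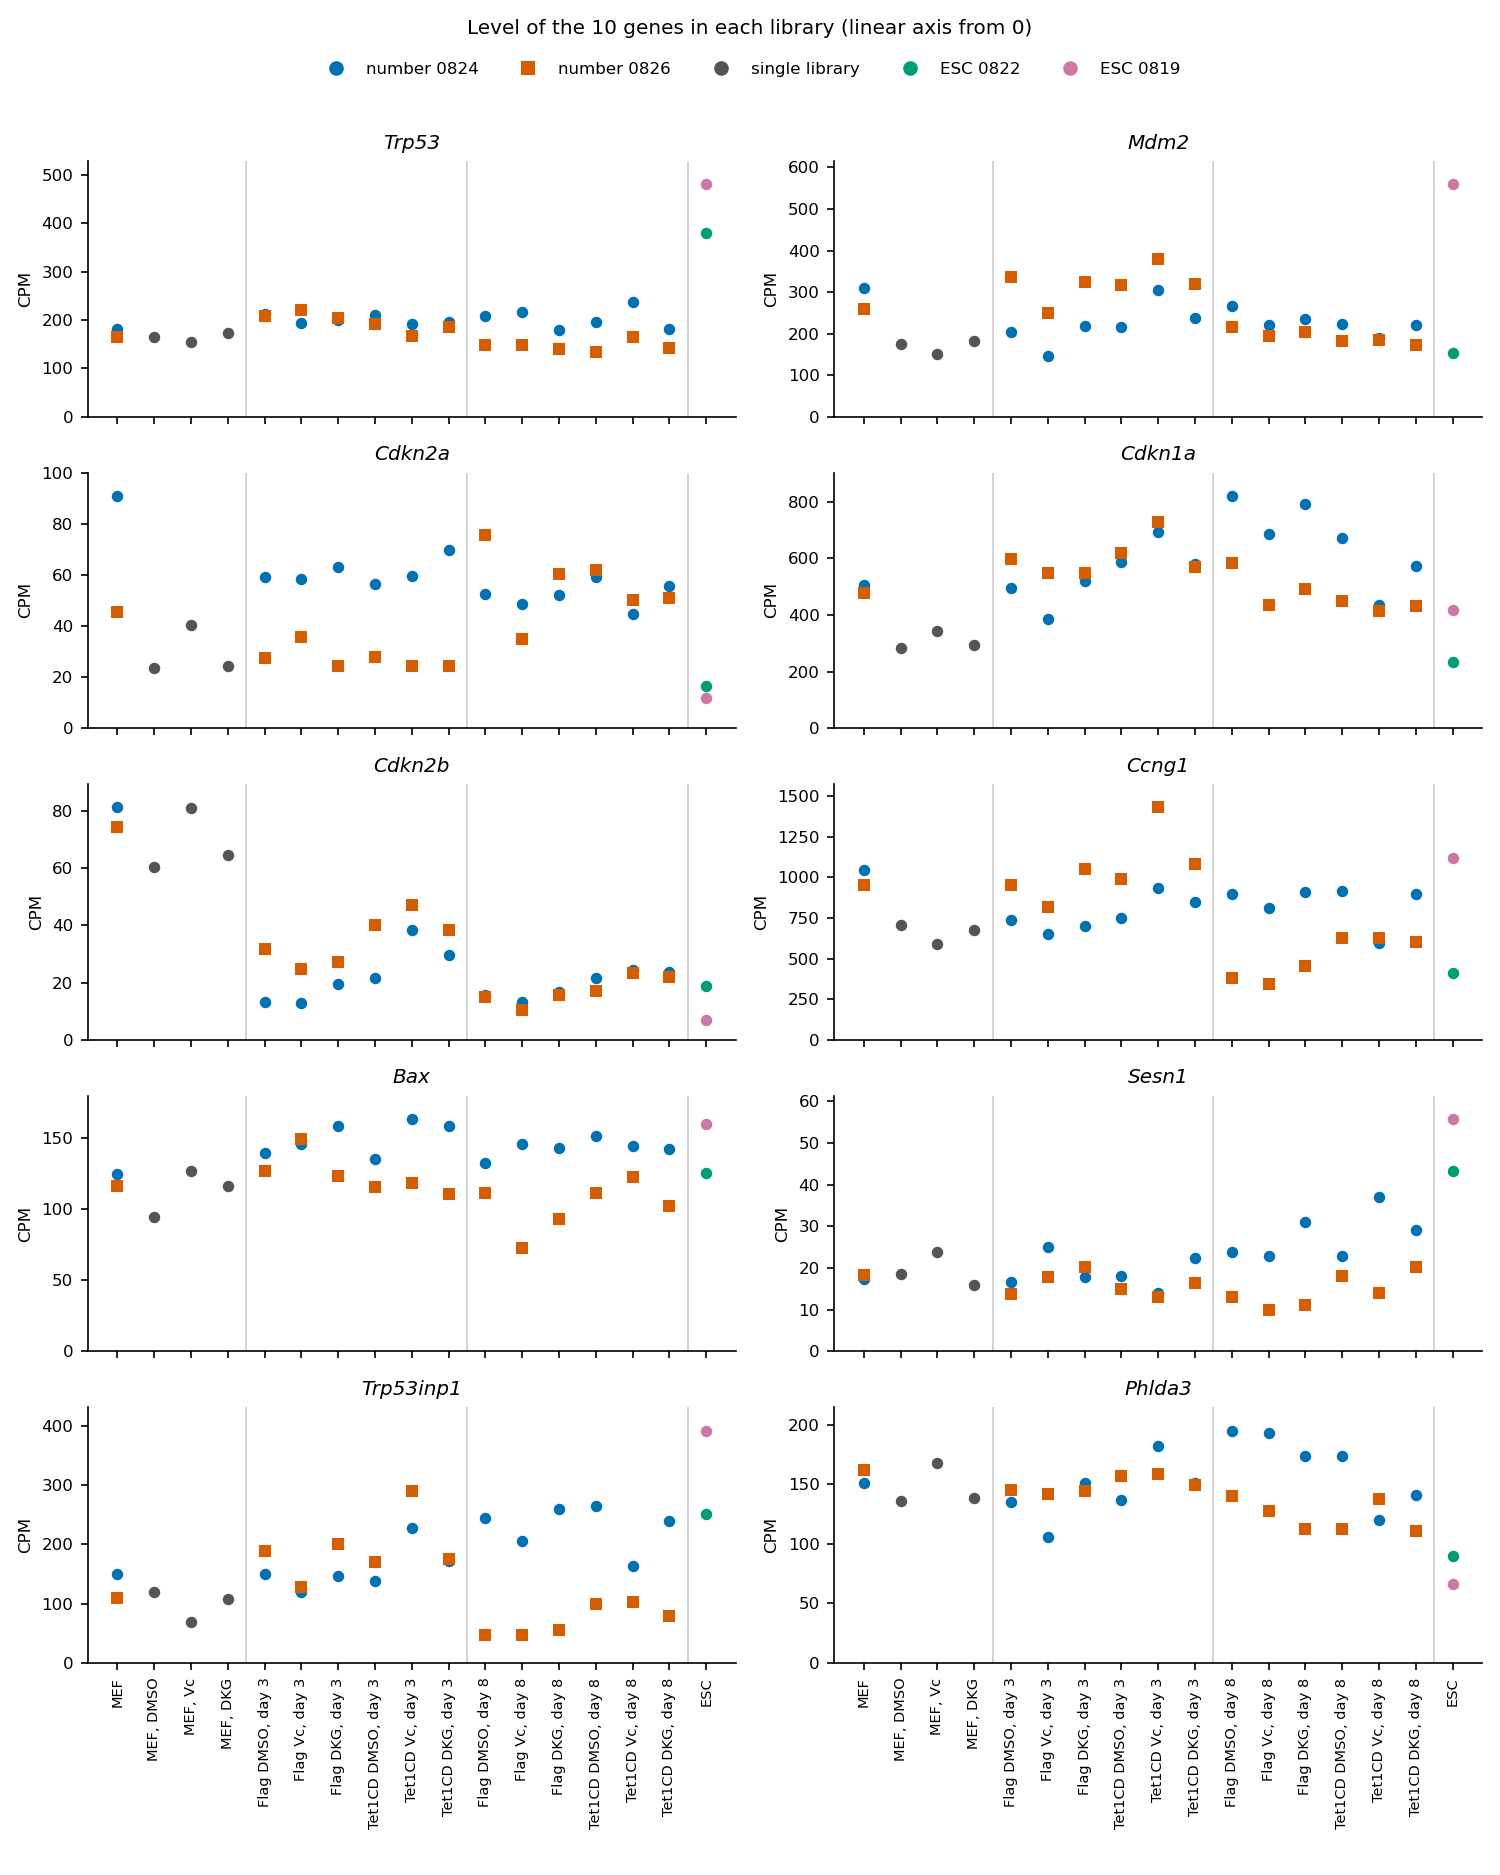
CPM (y axes, linear from 0) of each of the 10 genes in every library (x axis: group); circles are libraries 0824, single libraries and ESC, squares are libraries 0826. Cdkn2b lay between 60.5 and 81.1 CPM in all 5 fibroblast libraries and between 10.3 and 47.0 in the 24 reprogramming libraries, while Trp53 was highest in the 2 ESC libraries.

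Trp53 (chr11:69580359-69591873) was set apart by ESC. It stood at 182 and 165 CPM in MEF and at 165, 155 and 173 CPM in fibroblasts kept with DMSO, Vc and DKG. At day 3 it ran from 166 to 221 CPM (median 197, 12 libraries) and at day 8 from 133 to 238 CPM (median 172). The ESC libraries held 381 CPM (0822) and 481 CPM (0819), above every other library of the series. Trp53 was 2.50-fold higher in ESC than in MEF (log2 fold change 1.32 ± 0.24 SE, adjusted p = 0.000231) and rose by 1.30 ± 0.16 (log2) over the mean of the 6 day 8 groups (adjusted p = 3.06e-06). It was not called between the day 3 mean and MEF (0.19 ± 0.18, adjusted p = 0.44) or between the day 8 mean and MEF (0.01 ± 0.18, adjusted p = 0.967).

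Mdm2 (chr10:117688875-117710758), at once the brake on p53 and a target of it, varied most between the ESC libraries. It stood at 309 and 260 CPM in MEF and at 175, 150 and 182 CPM in fibroblasts kept with DMSO, Vc and DKG. At day 3 it ran from 147 to 380 CPM (median 277) and at day 8 from 172 to 265 CPM (median 210). The 2 ESC libraries held 154 CPM (0822) and 560 CPM (0819), the second above and the first below every MEF value. Against MEF no difference was called (log2 fold change 0.33 ± 0.41, adjusted p = 0.514). The call of Mdm2 in ESC against the day 8 mean (0.77 ± 0.30, adjusted p = 0.0356) turned its direction without 1 library, ESC 0819 (-0.43, adjusted p = 0.304). It was also lost without Tet1CD Vc 0824 or without the 0826 library of Flag DMSO, Flag Vc, Flag DKG, Tet1CD DMSO or Tet1CD DKG of day 8 (adjusted p between 0.0503 and 0.0612).

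Cdkn2a (chr4:89274471-89294653) was lowest in ESC. Its CPM was 91.1 and 45.6 in MEF, 23.5, 40.4 and 24.2 in fibroblasts with DMSO, Vc and DKG, and 16.5 and 11.9 in the ESC libraries 0822 and 0819. At day 3 it ran from 24.2 to 69.7 CPM (median 46.3) and at day 8 from 35.01 to 75.6 CPM (median 52.4). Cdkn2a fell in ESC against MEF (log2 fold change -2.26 ± 0.58, adjusted p = 0.0037) and against the day 8 mean (-1.91 ± 0.49, adjusted p = 0.00356), with no overlap between the ESC libraries and any of these. Without ESC 0819 the second of these calls was lost (-1.69, adjusted p = 0.0629). At day 3 the 6 libraries 0824 held 56.7 to 69.7 CPM and the 6 libraries 0826 held 24.2 to 35.8, so that the 2 numbers did not overlap in any group. The MEF library 0824 is the one with the higher sum of macrophage markers, and the part of such cells in its Cdkn2a level was not tested. In bulk RNA, fewer cells that express a gene and less RNA per cell cannot be told apart, which holds for every level given here.

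The 2 products of Cdkn2a could be separated through the deposited gene length, since RSEM weights it by the transcripts it finds (852 bases for INK4A, 895 for ARF). The ARF transcript made up 36.5% and 56.6% of the Cdkn2a TPM in MEF, 63.5% to 72.9% in the 3 libraries of fibroblasts kept in medium, 65.7% to 88.7% at day 3 (median 77.8%), 63.3% to 85.9% at day 8 (median 69.8%), and 90.5% and 87.5% in ESC 0822 and 0819. Both MEF libraries thus lay below every other library in the ARF share. The INK4A transcript stood at 133 and 45.1 TPM in MEF, at 9.83 to 51.6 TPM at day 3, at 12.0 to 55.2 TPM at day 8, and at 3.77 and 3.33 TPM in ESC. The lower MEF value overlapped with both days. The ARF transcript stood at 76.5 and 58.9 TPM in MEF, at 40.3 to 126 TPM at day 3 and at 72.9 to 124 TPM at day 8, overlapping with MEF at both days. Taking the mean of the 6 libraries of each number and day as 1 value, the share differed by -30.3 percentage points between MEF and day 3 (exact permutation test, two-sided, p = 0.333, the smallest that 2 against 2 values allow). These shares are read from a length difference of few bases and carry RSEM's own uncertainty, which the files do not give.

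**Figure D2:**
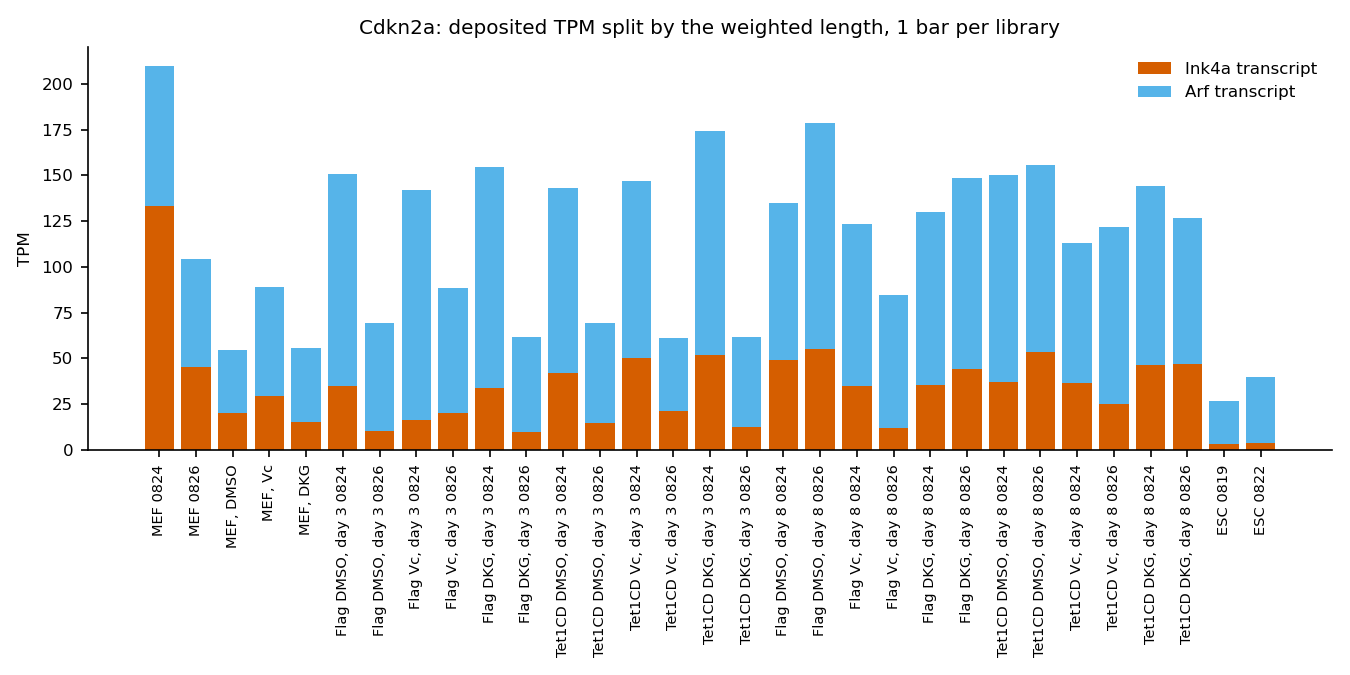
Deposited TPM of Cdkn2a (y axis, from 0) in every library (x axis), split into the INK4A transcript (lower, orange) and the ARF transcript (upper, blue) by the weighted length. INK4A makes up more than the ARF part only in MEF 0824 (133 against 76.5 TPM), and it is lowest in the 2 ESC libraries.

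Cdkn2b (chr4:89306299-89311039, the next INK4 gene on the same strand) fell with reprogramming in every comparison with fibroblasts. Its CPM was 81.1 and 74.4 in MEF, and 60.5, 80.8 and 64.4 in fibroblasts kept with DMSO, Vc and DKG. At day 3 it ran from 12.7 to 47.0 CPM (median 28.4), at day 8 from 10.3 to 24.4 CPM (median 17.0), and it was 18.8 and 6.90 CPM in ESC 0822 and 0819. None of the 24 reprogramming libraries reached the lowest of the 5 fibroblast libraries. The day 3 mean was 2.82-fold lower than MEF (log2 fold change -1.50 ± 0.29, adjusted p = 0.000421) and the day 8 mean 4.37-fold lower (-2.13 ± 0.28, adjusted p = 1.1e-05). Flag cells with DMSO at day 3, at 13.2 and 31.7 CPM, were lower than MEF by -1.79 (log2, adjusted p = 0.00502), a call that was lost without their library 0824 (-1.29, adjusted p = 0.0974). ESC were 5.99-fold lower than MEF (-2.58 ± 0.45, adjusted p = 0.00017). From day 3 to day 8 Cdkn2b fell by 0.63 ± 0.18 (log2, adjusted p = 0.0143). When the 6 libraries of a day and number were summed so that each day had 2 values, the day 8 against day 3 difference (-0.63, adjusted p = 0.996) and the day 3 against MEF difference (-1.37, adjusted p = 0.09) were no longer called, while day 8 against MEF was (-2.00, adjusted p = 0.0334). That fit called 0 of 16314 genes between the days (1101 at an unadjusted p under 0.05) and 12.4% of them between day 3 and MEF.

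Cdkn1a (chr17:29090976-29100727), the CDK inhibitor p21 and the best known arrest gene of p53, overlapped between reprogramming cells and untreated MEF. It stood at 507 and 478 CPM in MEF, at 384 to 728 CPM at day 3 (median 575), at 414 to 820 CPM at day 8 (median 532), and at 233 and 417 CPM in ESC 0822 and 0819. Fibroblasts kept with DMSO, Vc and DKG held 281, 342 and 294 CPM, below every reprogramming library. Against untreated MEF the differences were 0.20 ± 0.23 (log2) for the day 3 mean (adjusted p = 0.513) and 0.19 ± 0.23 for the day 8 mean (adjusted p = 0.531). ESC were lower than the day 8 mean (-0.78 ± 0.24, adjusted p = 0.0108), a difference that shrank to -0.44 without ESC 0822. With libraries summed by day and number it was not called (-0.87, adjusted p = 0.0747 by edgeR), where 25.1% of all genes were.

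None of the other 5 targets was called between MEF and the reprogramming days. Ccng1, which encodes cyclin G1, stood at 1043 and 954 CPM in MEF, at 650 to 1430 CPM at day 3 (median 890.5) and at 341 to 914 CPM at day 8 (median 624). Bax, a pore-forming protein of the death pathway, stood at 125 and 117 CPM in MEF, at 111 to 164 CPM at day 3 and at 73.1 to 152 CPM at day 8. Bax overlapped with MEF at both days and Ccng1 at day 3. At day 8 all 12 Ccng1 values lay below both MEF values, a difference that was not called (log2 -0.57 ± 0.35, adjusted p = 0.195). Trp53inp1, a stress-induced partner of p53, stood at 150 and 109 CPM in MEF, at 119 to 289 CPM at day 3 and at 46.8 to 265 CPM at day 8. Its day 8 range is split by library number, with 164 to 265 CPM in the 6 libraries 0824 and 46.8 to 103 CPM in the 6 libraries 0826. Sesn1, an antioxidant protein that restrains mTORC1, stood at 17.4 and 18.4 CPM in MEF, at 13.1 to 25.1 CPM at day 3 and at 9.83 to 37.1 CPM at day 8. Phlda3, a repressor of the AKT kinase, stood at 151 and 162 CPM in MEF, at 106 to 182 CPM at day 3 and at 111 to 195 CPM at day 8. In these 5 genes the log2 differences from MEF lay between -0.15 (Ccng1) and 0.40 (Trp53inp1) at day 3 and between -0.57 (Ccng1) and 0.24 (Sesn1) at day 8. Between the days none of them was called either, though a block by number over both days, a pairing the data do not bear out across days, called Ccng1 (-0.45, adjusted p = 0.0472).

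In ESC, Sesn1 (43.3 and 55.8 CPM in 0822 and 0819) rose against MEF (1.47 ± 0.48, adjusted p = 0.0153), and Phlda3 (89.5 and 66.5 CPM) fell (-0.996 ± 0.26, adjusted p = 0.00421). Both ranges lay apart from MEF and, for these 2 genes, from every reprogramming library. Each call depended on single libraries. Sesn1 was not called without MEF 0824, MEF 0826 or ESC 0819 in turn (adjusted p = 0.0855, 0.0675 and 0.0771), and Phlda3 was not called without ESC 0819 (adjusted p = 0.0577). Against the day 8 mean both were called (Sesn1 1.24 ± 0.32, adjusted p = 0.00375, and Phlda3 -0.88 ± 0.21, adjusted p = 0.00199), and both were lost without ESC 0819 (adjusted p = 0.0745 and 0.0648). Trp53inp1 at 252 and 392 CPM in ESC was not called against MEF (1.32 ± 0.76, adjusted p = 0.15), nor was Bax at 126 and 160 CPM (0.25 ± 0.29, adjusted p = 0.488).

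Counted over the 10 genes, ESC against MEF gave 5 calls, 2 higher (Trp53, Sesn1) and 3 lower (Cdkn2a, Cdkn2b, Phlda3), where 52.4% of all 14914 genes tested were called. Day 3 against MEF gave 1 call, Cdkn2b, where 41.8% of all genes were called, and so did day 8 against MEF, where 45.6% were. Flag with DMSO at day 3 against MEF gave the same single call where 28.7% of all genes were called. Day 8 against day 3 also gave 1 call, Cdkn2b, against 25.1% of all genes. ESC against the day 8 mean gave 6 calls (higher Trp53, Mdm2 and Sesn1, lower Cdkn1a, Cdkn2a and Phlda3) where 52.0% of all genes were called, and without ESC 0819 the calls were 2, Trp53 and Cdkn1a. These comparisons share MEF, ESC or reprogramming libraries with one another.

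The choice of fibroblast control changed which members were called. Taking the 3 single libraries of fibroblasts kept in medium as 1 group of 3, an alternative chosen after seeing the data, the day 3 mean was higher in Cdkn1a (log2 fold change 1.02 ± 0.20, adjusted p = 0.00024), Mdm2 (0.79 ± 0.27, adjusted p = 0.0188) and Trp53 (0.39 ± 0.15, adjusted p = 0.0349) and lower in Cdkn2b (-1.19 ± 0.24, adjusted p = 0.000403). These were 4 of 10 genes where 50.2% of all genes were called. The day 8 mean was higher in Cdkn1a (1.02 ± 0.20, adjusted p = 0.00022) and Cdkn2a (1.01 ± 0.37, adjusted p = 0.0269) and lower in Cdkn2b (-1.80 ± 0.24, adjusted p = 3.32e-06), against 53.6% of all genes. Flag cells with DMSO at day 3 were higher in Cdkn1a (0.96 ± 0.25, adjusted p = 0.00629) and lower in Cdkn2b (-1.48 ± 0.38, adjusted p = 0.00558), against 35.5% of all genes. The fall of Cdkn2b was thus called against both controls, and the rise of Cdkn1a only against fibroblasts kept in medium. Between the 2 controls themselves no member was called, as only 0.00667% of all genes (1 of 14992; 688 at an unadjusted p under 0.05) were. The largest member differences between fibroblasts in medium and untreated MEF were Cdkn2a (-1.21 ± 0.48, adjusted p = 0.941), Mdm2 (-0.74 ± 0.35, adjusted p = 1) and Cdkn1a (-0.68 ± 0.25, adjusted p = 0.868). The 3 libraries differ in what they were kept with, and macrophage markers summed to between 284.5 and 338.5 CPM in them.

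**Figure D3:**
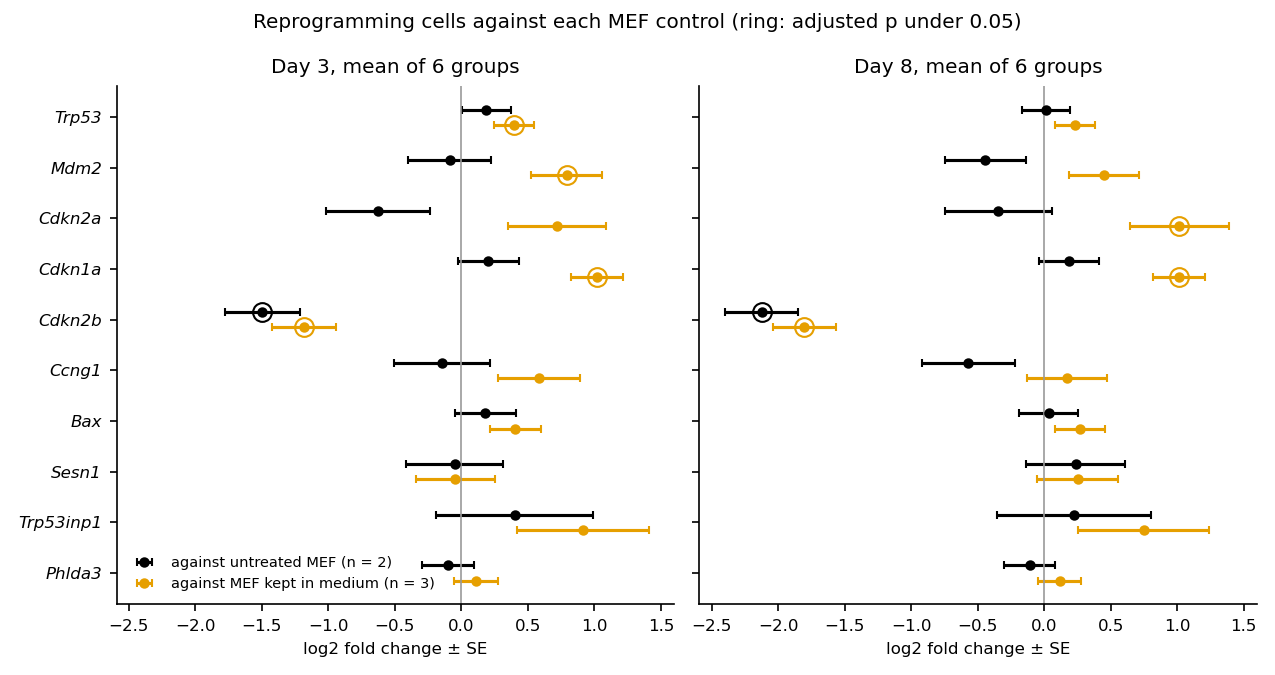
Log2 fold change ± SE (x axes) of each gene (y axis) at day 3 and day 8, mean of 6 groups, against untreated MEF (black, n = 2) and against fibroblasts kept in medium (orange, n = 3); rings mark an adjusted p under 0.05. Cdkn2b is ringed against both controls at both days, and Cdkn1a against fibroblasts in medium only (1.02 at day 3 against 0.20 with untreated MEF).

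Neither vitamin C nor DKG called any of the 10 genes in the mean over groups. Averaged over both viruses and both days, the log2 differences of Vc from DMSO lay between -0.21 (Cdkn2a, SE 0.27) and 0.09 (Sesn1, SE 0.24), where 0.590% of all genes were called. Those of DKG from DMSO lay between -0.09 (Cdkn1a, SE 0.15) and 0.25 (Sesn1, SE 0.24), where 0% of all genes were called (65 at an unadjusted p under 0.05). With the block within each day the mean of 4 Vc comparisons still called no member, against 10.3% of all genes, though Mdm2 was called in 2 of the single comparisons given further on. Over the 20 comparisons of single groups and the 7 interactions, no member was called without the block. At most 1.26% of all genes were called in any of the 20, and at most 0.295% in any of the 7. The test without a block was tried on simulated data of the same groups and library sizes. There libraries of 1 number shared no deviation, and each gene had 1 mean over all groups apart from the change put in. The test called 63% of genes changed by 2-fold in the mean of 4 Vc comparisons, with 15 false calls. In a comparison of 2 libraries with 2 it called 22%, with 4 false calls, so changes of that size would often be missed.

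Tet1CD with vitamin C at day 3 stood out among the members. Within each library number, Tet1CD with Vc was the highest of the 6 groups of day 3 in 6 of the 10 genes (Mdm2, Cdkn1a, Cdkn2b, Ccng1, Trp53inp1 and Phlda3), and Flag with Vc was the lowest in 5 of these 6, all but Cdkn1a, in both numbers. The share of all genes with such ranks, or without overlap between these 2 groups, was not counted. Mdm2 was 304 and 380 CPM (0824 and 0826) in Tet1CD with Vc and 147 and 250 CPM in Flag with Vc. Cdkn1a was 694 and 728 CPM against 384 and 547 CPM. The 2 groups do not overlap in either gene. Cdkn2b was 38.4 and 47.0 CPM against 12.7 and 24.8 CPM, and Trp53inp1 was 228 and 289 CPM against 119 and 128 CPM. Ccng1 was 931 and 1430 CPM against 650 and 816 CPM, and Phlda3 was 182 and 159 CPM against 106 and 142 CPM. In these 4 genes too the groups did not overlap. In the other 4 members the order differed, with Trp53 at 191 and 166 CPM against 194 and 221 CPM, and Sesn1 at 14.01 and 13.1 CPM against 25.1 and 17.9 CPM.

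Without a block none of these differences was called, with adjusted p between 0.47 (Cdkn2b) and 0.829 (Trp53inp1) for the 6 genes. In that fit 0.483% of all genes were called. With the block within each day all 6 were called, where 16.6% of all 14015 genes were. The log2 differences of Tet1CD from Flag were then 0.85 ± 0.10 for Mdm2 (adjusted p = 1.75e-05), 0.65 ± 0.12 for Cdkn1a (adjusted p = 0.00143), 1.27 ± 0.19 for Cdkn2b (adjusted p = 0.000148) and 1.08 ± 0.24 for Trp53inp1 (adjusted p = 0.00445). Ccng1 rose by 0.69 ± 0.20 (adjusted p = 0.021) and Phlda3 by 0.50 ± 0.16 (adjusted p = 0.0368). Bax (-0.05 ± 0.14), Cdkn2a (-0.20 ± 0.20), Trp53 (-0.19 ± 0.09) and Sesn1 (-0.64 ± 0.24) were not called. Leaving out each of the 4 libraries in turn leaves 1 library in an arm, which is then assumed to vary like the other groups. Under that assumption Mdm2 and Cdkn2b were called every time, and between 3 and 5 of the members were. Ccng1 was lost without any one of the 4, Phlda3 without Flag 0824 or Tet1CD 0824, Cdkn1a without Flag 0824 and Trp53inp1 without Flag 0826.

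With DMSO or DKG at day 3, Tet1CD called no member with the block, where only 0.535% (DMSO) and 0.471% (DKG) of all genes were called. The Tet1CD effect with Vc minus that with DMSO was itself called at day 3 only in Mdm2, as given further on. In that test 0.464% of all genes were called. It did not call Trp53inp1 (1.22 ± 0.34, adjusted p = 0.136), Cdkn2b (0.78 ± 0.27, adjusted p = 0.243) or Cdkn1a (0.50 ± 0.175, adjusted p = 0.263). Nor did it call Ccng1 (0.65 ± 0.28, adjusted p = 0.388) or Phlda3 (0.43 ± 0.22, adjusted p = 0.497). At day 8 with Vc, Tet1CD called Cdkn2b alone, where 12.6% of all genes were called. The levels were 24.4 and 23.2 CPM in Tet1CD against 13.3 and 10.3 CPM in Flag, a log2 difference of 1.02 ± 0.21 (adjusted p = 0.00356). Without the Tet1CD library 0824, in which macrophage markers summed to 1067 CPM, it was 1.06 (adjusted p = 0.0204), and without Flag 0826 it was 0.93 (adjusted p = 0.058). Over the mean of all 6 pairs of groups, no member was called without the block, where 2.10% of all genes were, and Cdkn2b came nearest (0.67 ± 0.18, adjusted p = 0.0575). With it, Cdkn2b (0.70 ± 0.08, adjusted p = 4.34e-06), Ccng1 (0.28 ± 0.08, adjusted p = 0.0152) and Trp53inp1 (0.33 ± 0.10, adjusted p = 0.0212) rose, where 24.3% of all genes were called. Trp53inp1 was lost there without Tet1CD DKG day 3 0824, Flag Vc day 8 0826 or Flag DKG day 8 0826. Cdkn2b was higher in Tet1CD than in Flag in all 12 pairs of libraries of the same medium, day and number. These pairs come from the numbers 0824 and 0826 only, and the share of all genes with such an order was not counted.

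At day 8 the order of the groups was another: Flag with DMSO was the highest of the 6 in both numbers for Mdm2, Cdkn1a and Phlda3, and Tet1CD with Vc the lowest for Cdkn1a. These ranks too were not counted over all genes. Tests of the differences between effects passed for 3 members, again with the block only. The Tet1CD effect, averaged over the 3 media, was lower at day 8 than at day 3 by -0.63 ± 0.10 (log2) in Cdkn1a (adjusted p = 0.000423), -0.47 ± 0.08 in Mdm2 (adjusted p = 0.000923) and -0.41 ± 0.13 in Phlda3 (adjusted p = 0.0425), where 11.9% of all genes were called. Cdkn1a and Mdm2 were called there without each of the 24 libraries in turn, and Phlda3 was not without most of them. At day 3 the Tet1CD effect in Mdm2 was larger with Vc than with DMSO by 0.86 ± 0.14 (adjusted p = 0.00665), where 0.464% of all genes were called. Correspondingly Vc against DMSO gave Mdm2 a log2 difference of -0.46 ± 0.10 in Flag cells (adjusted p = 0.034, 0.892% of all genes called) and of 0.40 ± 0.10 in Tet1CD cells (adjusted p = 0.0383, 2.86% called). These 3 Mdm2 calls share libraries, and each was lost when some of the libraries were left out. The interaction was lost without Flag Vc 0824, Tet1CD DMSO 0824, Tet1CD Vc 0824 or Flag DMSO 0826. The difference in Flag cells remained called only without Flag Vc 0826, and that in Tet1CD cells only without Tet1CD Vc 0826.

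**Figure D4:**
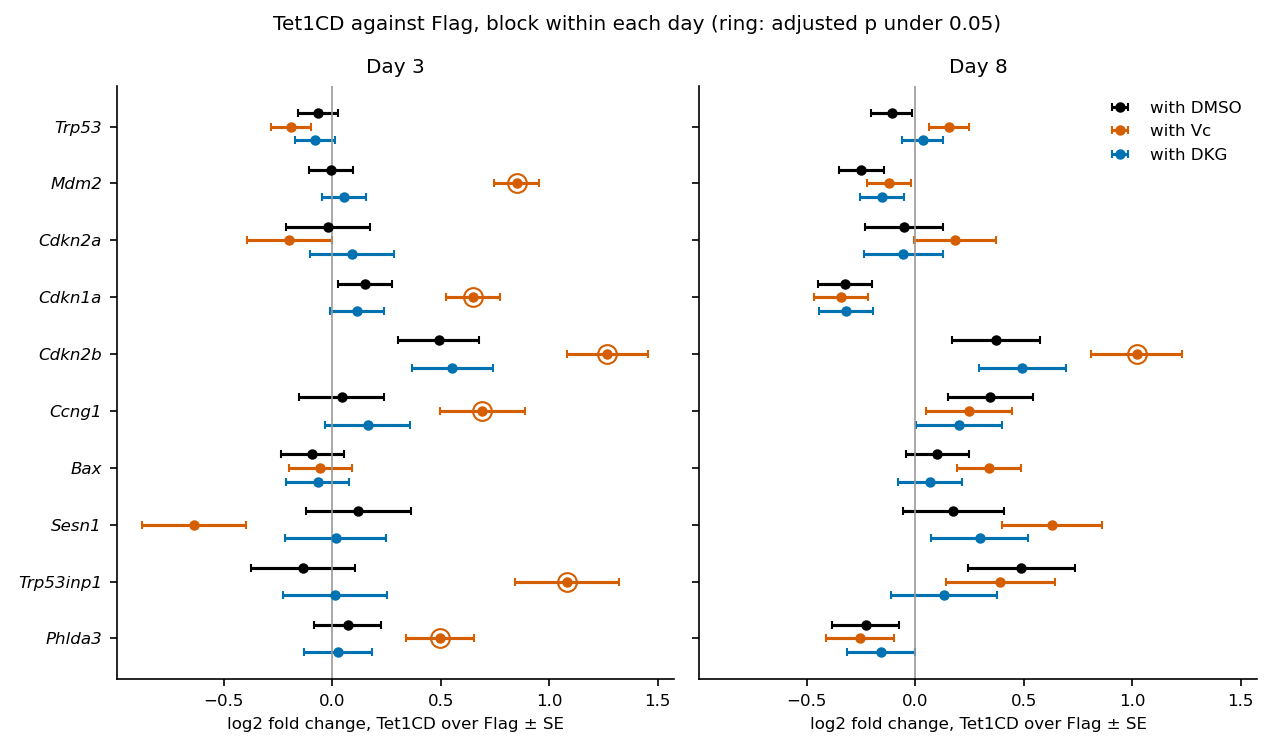
Log2 fold change of Tet1CD over Flag ± SE (x axes) for each gene (y axis) with DMSO (black), Vc (orange) and DKG (blue) at day 3 and day 8, from the fit with the block within each day; rings mark an adjusted p under 0.05. At day 3 the 6 ringed points are all with Vc, from 0.50 (Phlda3) to 1.27 (Cdkn2b), and at day 8 Cdkn2b with Vc is the only ringed point (1.02). The difference between the effects with Vc and with DMSO at day 3 was called only in Mdm2.

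Other p53 target genes from the lists rose beside the members in Tet1CD with Vc at day 3, in the fit with the block. Of the 17 tested arrest and repair targets, 5 rose and 0 fell, of the 15 apoptosis targets 7 rose and 0 fell, and of the 15 metabolic and redox targets 4 rose and 0 fell. Together 16 of 47 were called (34.0%), against 16.6% of all genes called in either direction. Of the 2325 genes called among all 14015, 1483 rose. The lists were chosen with earlier results of these data known, so these shares describe them and test nothing. With DMSO or DKG at day 3, 0 of these 47 targets were called, where 0.535% and 0.471% of all genes were. The Tet1CD effect with Vc minus that with DMSO at day 3 also called 0 of 47, against 0.464% of all genes. With Vc, the growth differentiation factor Gdf15 went from 0.760 and 3.96 CPM in Flag to 22.8 and 18.0 CPM in Tet1CD (log2 3.30 ± 0.45, adjusted p = 6.72e-05). The arrest protein gene Sfn went from 11.6 and 19.6 CPM to 52.0 and 50.5 CPM (1.80 ± 0.23, adjusted p = 2.73e-05), and Epha2, a receptor tyrosine kinase, from 30.96 and 74.2 CPM to 146.5 and 142 CPM (1.60 ± 0.20, adjusted p = 3.24e-05). Pmaip1, the BH3-only death gene Noxa, went from 3.42 and 10.6 CPM to 13.8 and 24.1 CPM (1.53 ± 0.27, adjusted p = 0.000601). All 4 genes were higher in both Tet1CD libraries than in either Flag library. The others that rose were Ptprv, Plk2, Polk, Btg2, Casp8, Fas, Dcxr, Tnfrsf10b, Bcl2l1, Apaf1, Ak1 and Abhd4, of which Bcl2l1 encodes an inhibitor of cell death. Plk2 was the one gene of these called without a block too (0.80 ± 0.17, adjusted p = 0.0379).

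Of the 14 genes of the INK4, CIP and RB list, Ccnd1 (0.65 ± 0.16) and Ccnd2 (0.53 ± 0.09), the D-type cyclins, rose there, and Cdk2 (-0.39 ± 0.12) and Cdk4 (-0.30 ± 0.08) fell. Of the 19 tested upstream regulators of p53 none was called. Of 23 proliferation genes 14 fell and 0 rose, where 16.6% of all genes were called in either direction. The summed level of the proliferation genes was 3356 and 3263 CPM in Tet1CD with Vc against 4320 and 4243 CPM in Flag with Vc. Of 18 tested senescence and secretory genes 8 rose and 2 fell, Hmgb2 and Lmnb1, both of which are known to be lost in senescent cells. Whether any of these cells were senescent was not tested. The summed markers of other cells differed in the same libraries. Fibroblast markers stood at 5955 and 7664 CPM in Tet1CD against 3662 and 6728 CPM in Flag, with 0 of 12 genes at 0, and macrophage markers at 85.8 and 48.7 CPM against 11.2 and 16.9 CPM. Epithelial markers stood at 643 and 445 CPM against 349 and 334 CPM, and stem cell markers at 13.6 and 2.81 CPM against 19.0 and 4.58 CPM. Their part in the members' levels was not tested.

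Between MEF and the reprogramming days, genes of the wider lists changed in both directions. Over all genes 20.1% rose and 21.7% fell at day 3, and over the 3 lists of p53 targets 16 of 47 were called (34.0%), below the 41.8% of all genes. Sfn, Perp and Trp63, named below, are known as genes of epithelia. Epithelial markers (12 genes) summed to 19.8 and 22.8 CPM in MEF and to 190.5 to 643 CPM at day 3, and their part was not tested. At day 3, 7 of 20 tested p53 regulators rose and 0 fell, among them Chek1, a checkpoint kinase (8.37 CPM in MEF and 26.01 at day 3 on average; log2 1.62 ± 0.21, adjusted p = 1.06e-05), and the p53 relative Trp63 (at most 0.200 CPM in MEF and 1.06 CPM on average at day 3). Of 17 arrest and repair targets 3 rose and 4 fell, led by Sfn (2.64 ± 0.45) and by Plk3 (-1.73 ± 0.22) and Plk2 (-1.67 ± 0.11). Of 15 apoptosis targets 2 rose, with Perp at 38.9 CPM in MEF and 187.5 on average at day 3 (2.25 ± 0.50), and 3 fell, with Pmaip1 at 47.6 and 11.5 CPM (-2.12 ± 0.42). Of 15 metabolic targets 2 rose, Gls2 (1.36 ± 0.39) and Tigar (0.81 ± 0.20), which act in glutamine and sugar metabolism, and 2 fell, Trp53i13 (-1.69 ± 0.40) and Ak1 (-0.69 ± 0.23). The median log2 change over the 10 members was -0.07, against 0.05 over all genes tested.

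Of the 14 INK4, CIP and RB genes at day 3, Rb1 rose most (39.2 CPM in MEF, 208 on average at day 3; log2 2.41 ± 0.42, adjusted p = 0.000217), Ccnd1 and Cdk2 rose as well, and the CIP family inhibitor Cdkn1c fell from 89.8 to 20.7 CPM (-2.12 ± 0.59, adjusted p = 0.00775). Senescence and secretory genes fell in 13 and rose in 2 of 19 (median -1.76), with Il1rl1 going from 169 to 2.85 CPM, and the 2 that rose were Hmgb2 (2.10 ± 0.23) and Lmnb1 (1.32 ± 0.17). Proliferation genes rose in 21 of 23 (median 1.00). From day 3 to day 8, where 14.4% of all genes rose and 10.7% fell, the directions turned for part of these lists: 21 of 23 proliferation genes fell, 7 of 14 INK4, CIP and RB genes fell while Cdkn1c rose (1.46 ± 0.38), 5 of 19 senescence and secretory genes rose and 0 fell, and 6 of 17 arrest targets rose and 2 fell, led by Sfn (1.14 ± 0.18) and Gadd45a (0.94 ± 0.15). The members' median change from day 3 to day 8 was -0.16. These list counts come from the fit without a block, which takes the libraries of a day as separate values. With libraries summed by day and number, 0 of all 16314 genes were called between the days, and 12.4% between day 3 and MEF.

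In ESC against MEF, 10 of 20 p53 regulators rose and 4 fell. Tbx3 rose (2.86 ± 0.45) and its relative Tbx2 fell (-3.00 ± 0.48), both of which encode repressors known to act on the Cdkn2a locus. Trp73, a p53 relative, was at 0 in both MEF libraries and at 8.74 and 37.0 CPM in ESC. The p53 targets were divided: Gls2 (3.92 ± 0.48), Sfn (4.03 ± 0.52) and Tigar (2.26 ± 0.25) rose, and Fas (-3.14 ± 0.77), Casp8 (-2.20 ± 0.48) and Rprm (-1.95 ± 0.51) fell. Over the 3 target lists 9 of 47 tested genes rose and 10 fell (40.4% called), below the 52.4% called over all genes. Senescence and secretory genes fell in 11 and rose in 3 of 19, and proliferation genes rose in 21 of 23.

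Over the 24 reprogramming libraries, the genes most like each of 4 members in log2 CPM were named as a description, the libraries sharing day, number and medium. For Cdkn1a these were Cryab (Pearson's r = 0.924), Tob1 (0.890) and the member Phlda3 (0.889). For Mdm2 they were S100a6 (0.930), Msn (0.922) and Snx7 (0.916), and for Trp53 Fzr1 (0.947), Ino80e (0.925) and Med24 (0.924). For Cdkn2a they were Ndufa7 (0.947), Adap1 (0.903) and Sypl2 (0.895). Cdkn1a and Mdm2 correlated at 0.678 with each other, and Cdkn2a and Mdm2 at -0.676, the 2 genes that differ in opposite directions between the library numbers of day 3.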

How the data were processed

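RNA of 31 libraries was measured by RNA-seq (Trizol, TruSeq RNA kit, per the labels' protocols). The authors aligned reads with Bowtie and estimated expression with RSEM on mm10, per the submitters' processing notes. The versions of these tools are unknown here. The deposited tables give each gene's expected count, TPM and FPKM, and a transcript-weighted length, per the file headers. The deposited FPKM values were not used. Expected counts were rounded. The deposited TPM was used for levels between genes and for the Cdkn2a transcripts. Of 29267 gene IDs, 28756 matched GENCODE M21, which gave names and coordinates.

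The test was edgeR 4.0.16 (R 4.3.3), quasi-likelihood, with TMM, filterByExpr (minimum count 10), 1 mean for each of 14 groups of 2 libraries, no block, and Benjamini-Hochberg adjustment over 14914 genes (36 comparisons). The deposited counts were compared on the log2 scale, and the SE is the log2 fold change divided by the square root of F. Log2 CPM had a prior count of 2. A count of 3, the upper limit a count of 0 allows, is 0.440 to 0.759 CPM, for counting error only. Library numbers 0824 and 0826 were checked as a pairing: deviations from group means correlated at 0.356 to 0.504 between groups of day 3 and at 0.345 to 0.687 between groups of day 8, but at -0.008 to 0.178 across days and -0.01 to 0.305 with MEF. The numbers were therefore taken to pair libraries within a day, from these values and not from the labels, and the fit of 24 libraries with that block tested 14015 genes. Alternatives were DESeq2 1.42.0 (size factors, Wald test), no filter, only the groups compared, limma 3.58.1 on log2(TPM + 1), blocks, summed libraries and leaving out each library. The comparison with fibroblasts kept in medium, and the leave-one-out and size-factor fits with the within-day block, were added after seeing the data. The test was tried on simulated data.

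The members and gene lists were chosen with earlier results of these data known. Named genes are the members, up to 2 called genes each way per list with the largest changes in the comparisons with MEF and between days, and called p53 and INK4 genes in the Tet1CD and vitamin C comparisons.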

Additional observations from a re-analysis of the deposited data

Results flagged for a closer look

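Tested differences between effects passed in 4 cases, all in the fit with the library number as a block within each day. The Tet1CD effect at day 8 minus that at day 3 was -0.63 (log2) for Cdkn1a, -0.47 for Mdm2 and -0.41 for Phlda3. The Tet1CD effect with Vc minus that with DMSO at day 3 was 0.86 for Mdm2. Without the block the adjusted p of edgeR's quasi-likelihood test was 0.507 for Cdkn1a, 0.997 and 1 for the 2 Mdm2 differences and 0.77 for Phlda3, so none of the 4 was called there.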

How the results depend on the processing

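Calls are member genes of 10 at an adjusted p under 0.05. Against fibroblasts kept in medium the calls were 2 for Flag DMSO day 3, 4 for day 3 and 3 for day 8, against 1 each with untreated MEF. With libraries summed by day and number, day 3 against MEF (12.4% of all genes called) and day 8 against day 3 (0% of all genes) gave 0 calls. ESC against day 8 (25.1% of all genes) then lost the calls of Mdm2 and Cdkn1a (adjusted p = 0.358 and 0.0747 by edgeR) and kept Trp53, Sesn1, Cdkn2a and Phlda3. With only the groups compared, day 8 against MEF (46.7% of all genes) and day 8 against day 3 (31.2%) gave 2 calls each. With the replicate block, day 8 against day 3 gave 4 calls (Cdkn2b, Mdm2, Ccng1 and Trp53, all lower, where 40.1% of all genes were called) and Tet1CD against Flag over the mean of 6 gave 1 (8.46% of all genes), as it did with no filter, with DESeq2's Wald test and with only the groups compared (0 in the reported fit). With the replicate block within each day, that mean gave 3 calls and the 7 interactions 4. Without this block, Tet1CD with Vc at day 3, the mean of 6 and the Tet1CD effect between days gave 0 calls each, against 6, 3 and 3 with it. Over all genes these 3 gave 0.483%, 2.10% and 0.295% without the block, and 16.6%, 24.3% and 11.9% with it. The within-day block also took 3 single comparisons from 0 to 1 call, Vc against DMSO in Flag and in Tet1CD cells at day 3 (Mdm2) and Tet1CD with Vc at day 8 (Cdkn2b). The blocks changed no other call of a member in the comparisons they could be fitted to. The 20 comparisons of single groups have no summed value with the within-day block, which fits 14 of them.

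Leaving out 1 library at a time, the calls ranged from 4 to 6 for ESC against MEF, 0 to 1 for Flag DMSO day 3, 1 to 2 for day 8 against day 3, 2 to 7 for ESC against day 8 and 0 to 1 for the Tet1CD mean. With the within-day block they ranged from 3 to 5 for Tet1CD with Vc at day 3, 2 to 3 for the mean of 6 and 2 to 4 for the effect between days. Mdm2 in ESC against day 8 ranged from -0.43 (reversed, without ESC 0819) to 1.40 (without ESC 0822), and the cause was not tested. Of 251 combinations of a called fold and an alternative, 227 kept direction and call, 23 lost the call and 1 reversed. With 2 libraries a group, depth and number of libraries limit what could be called.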

Other observations

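The 2 ESC libraries, 0819 (passage 19) and 0822 (passage 17), differed from each other in several members. Mdm2 stood at 560 against 154 CPM, Ccng1 at 1120 against 409 CPM, Trp53inp1 at 392 against 252 CPM and Cdkn1a at 417 against 233 CPM, all higher in 0819. Phlda3 (66.5 against 89.5 CPM), Cdkn2b (6.90 against 18.8 CPM) and Cdkn2a (11.9 against 16.5 CPM) were lower in 0819, as were fibroblast markers, at 4509 against 15820 CPM. The deposited file names carry the 2 ESC numbers the other way round from the labels, which are followed here, so which passage is which is uncertain.

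At day 8 all of Trp53, Mdm2, Cdkn1a, Cdkn2b, Bax, Sesn1 and Trp53inp1 were higher in library 0824 than in 0826 in 6 of 6 groups. At day 3 Mdm2, Cdkn2b, Ccng1 and Trp53inp1 were lower in 0824 in 6 of 6 groups. The share of all genes with such an order was not counted. What the numbers stand for is not given in the labels.

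With the block within each day, genes of the p53 and INK4 lists were called at about the rate of all genes in 2 comparisons in which few or no members were. For Vc over the mean of 4 it was 8 of 80 (against 10.3% of all genes), for Tet1CD with Vc at day 8 it was 11 of 80 (13.8%, against 12.6%). Vc against DMSO over the mean of 4 raised Gdf15 (log2 1.66 ± 0.26), Epha2 (0.47 ± 0.10), Sfn (0.41 ± 0.11), Casp8 (0.37 ± 0.09), Fdxr (0.36 ± 0.11) and Plk2 (0.18 ± 0.06), and lowered Zmat3 (-0.19 ± 0.06) and Ccnd2 (-0.23 ± 0.05). Tet1CD with Vc at day 8 raised Gdf15 (2.11 ± 0.44), Tap1 (1.32 ± 0.22), Chek2 (0.998 ± 0.22), Ptprv (0.78 ± 0.19), Ccne1 (0.93 ± 0.13), Casp8, Apaf1 and Siva1, and lowered Aen (-0.56 ± 0.10), Sesn2 (-0.51 ± 0.14) and Ccnd2 (-0.48 ± 0.09). Macrophage markers stood at 1067 CPM in 1 of the 2 Tet1CD libraries of that comparison, and their part was not tested. Over the mean of 6 without a block, Tet1CD raised Gdf15 (1.70 ± 0.32, adjusted p = 0.00624 by edgeR), Epha2 (0.68 ± 0.16, adjusted p = 0.0266) and Ptprv (0.50 ± 0.11, adjusted p = 0.0166). With the block 18 of 80 were called (22.5%, against 24.3% of all genes), and Pmaip1 (0.57 ± 0.11), Sfn (0.46 ± 0.09), Tap1, Ak1, Casp8, Ccne1, Apaf1, Chek1, Ccnd1, Abhd4 and Plk2 rose too, and Rprm (-0.47 ± 0.14), Cdkn1c (-0.31 ± 0.08), Ddit4 and Aen fell.

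The Tet1CD effect also differed between day 8 and day 3 in other genes of the lists, with the block, 22 of 80 being called (27.5%, against 11.9% of all genes). It was higher at day 8 in Cdkn2d (0.81 ± 0.23), Ccne1 (0.76 ± 0.10), Chek2 (0.69 ± 0.17), Chek1 (0.67 ± 0.13), Tap1, Siva1, Fdxr, Rbl1, Atr, Cdk2, Mdm4, Npm1, Trp53bp1 and Cdk4. It was lower at day 8 in Sfn (-1.15 ± 0.18), Ccnd2 (-0.69 ± 0.07), Cdkn1c (-0.55 ± 0.16), Sesn2, Btg2, Plk2, Aen and Abhd4. The lists were chosen with earlier results of these data known, so the 27.5% describes them and tests nothing.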
